A study of Mus musculus with 58 samples.

Results

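Microglia from wild-type mice given an antisense oligonucleotide (ASO) against Tfeb were compared directly with microglia from wild-type mice given an ASO against Tfe3. The comparison takes the 8 libraries with these labels, 4 for each ASO, of 58 RNA-seq libraries in all, and leaves the shared control out of the test. All 8 come from C57BL/6 mice without a gene deletion. The ASO was given as 1 injection into the cerebral ventricles and the cells were collected 14 days later from the forebrain. DAPI-negative singlets were sorted on CD11b, low CD45 and CX3CR1. The titles carry a grp number from 1 to 4, and each grp holds 1 library of each treatment, so every Tfeb ASO library has a partner with the Tfe3 ASO. The other wild-type treatments of that experiment, 4 libraries each, were PBS, a control ASO labelled ntc and an ASO against Mitf. The labels give no age, sex or ASO sequence and do not say whether a library is 1 animal or a pool, so p-values measure the spread between these libraries. An ASO lowers its target in all cells it reaches, so the levels are those of microglia in a brain in which other cells were exposed too.

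TFEB and TFE3 belong, with MITF and TFEC, to the MiT/TFE family of basic helix-loop-helix leucine zipper factors, which bind E-box sequences as homodimers or as dimers with each other. When nutrient signalling through mTORC1 at the lysosome is high they are phosphorylated and held in the cytoplasm, and when it falls they enter the nucleus and switch on genes of lysosome formation and autophagy. The palindromic element through which they act on lysosomal genes is called CLEAR. In microglia, the phagocytes of the brain, lysosomal genes are expressed at high levels, and part of the disease-associated (DAM) programme that appears around plaques and in storage disorders consists of lysosomal and lipid-handling genes.

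The promoters below are those of 4 lysosomal genes that were called in this comparison, chosen from those that hold an E-box. Clcn7, also called, has an E-box before a RefSeq start too and is not printed. Ctsa and Clcn7 each have another RefSeq start without an E-box in the bases before it. Each is the 250 bases before a RefSeq start (GRCm38.p6), with E-boxes (CACGTG) in capitals and, where the longer core of the CLEAR element (TCACGTGA) is present, its 8 letters in capitals. Ctsa encodes cathepsin A, Mcoln1 the lysosomal calcium channel TRPML1, Lamp1 a major glycoprotein of the lysosomal membrane that is used as a marker of the organelle, and Gaa the acid alpha-glucosidase.
Ctsa, chr2:164833523-164833772, plus strand: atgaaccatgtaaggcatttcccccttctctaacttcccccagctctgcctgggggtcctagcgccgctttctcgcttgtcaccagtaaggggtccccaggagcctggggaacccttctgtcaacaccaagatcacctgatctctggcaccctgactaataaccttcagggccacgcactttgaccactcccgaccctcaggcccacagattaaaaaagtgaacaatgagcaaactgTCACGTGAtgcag
Mcoln1, chr8:3500269-3500518, plus strand: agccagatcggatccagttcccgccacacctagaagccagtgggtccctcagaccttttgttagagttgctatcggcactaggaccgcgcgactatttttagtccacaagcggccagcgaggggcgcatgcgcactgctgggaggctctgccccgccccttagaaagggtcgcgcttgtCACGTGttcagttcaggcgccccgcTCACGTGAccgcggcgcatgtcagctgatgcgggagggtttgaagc
Lamp1, chr8:13158911-13159160, plus strand: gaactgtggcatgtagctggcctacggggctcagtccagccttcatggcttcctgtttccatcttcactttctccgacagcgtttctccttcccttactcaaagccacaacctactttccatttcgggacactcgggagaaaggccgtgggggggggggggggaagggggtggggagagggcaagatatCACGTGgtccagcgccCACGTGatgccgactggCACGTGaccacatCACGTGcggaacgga
Gaa, chr11:119267713-119267962, plus strand: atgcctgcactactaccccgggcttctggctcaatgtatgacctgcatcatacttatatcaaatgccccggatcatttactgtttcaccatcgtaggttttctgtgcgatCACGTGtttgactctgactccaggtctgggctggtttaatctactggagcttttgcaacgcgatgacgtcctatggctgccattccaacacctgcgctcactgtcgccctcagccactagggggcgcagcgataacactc

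Each ASO lowered its own target and left the transcript of the other factor near the control level. Tfeb (ENSMUSG00000023990.18, GRCm38 chr17:47737030-47792419) stood at 6.91, 6.30, 4.59 and 5.40 CPM (counts scaled to library size) in the Tfeb ASO libraries of grp 1 to 4. With the Tfe3 ASO it stood at 56.2, 54.0, 44.8 and 49.5 CPM, beside 54.9 ± 2.33 CPM with ntc (SD, n = 4). The groups did not overlap, and the log2 fold change, Tfeb ASO minus Tfe3 ASO, was -3.14 ± 0.08 (SE; adjusted p = 8.91e-08, edgeR quasi-likelihood test with grp as block). Tfe3 (ENSMUSG00000000134.17, chrX:7762560-7775202) stood at 216, 199, 221 and 231 CPM with the Tfeb ASO and at 40.03, 36.8, 34.9 and 40.5 CPM with its own ASO. The ntc level was 198 ± 4.997 CPM (SD, n = 4), so the Tfeb ASO libraries of grp 1, 3 and 4 lay above the ntc range and that of grp 2 within it. The log2 fold change was 2.51 ± 0.06 (adjusted p = 8.91e-08). In fold terms Tfeb was 8.79-fold lower with its own ASO than with the other, and Tfe3 5.70-fold lower with its own. Mitf did not pass the test: it stood at 38.8, 35.1, 41.8 and 46.1 CPM with the Tfeb ASO and at 41.9, 44.2, 46.7 and 45.8 CPM with the Tfe3 ASO (log2 fold change -0.15 ± 0.07, adjusted p = 0.256). Tfec is not among the genes listed in the count table. All log2 fold changes below are Tfeb ASO minus Tfe3 ASO, so a positive value means higher with the Tfeb ASO and, equally, lower with the Tfe3 ASO.

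**Figure D1:**
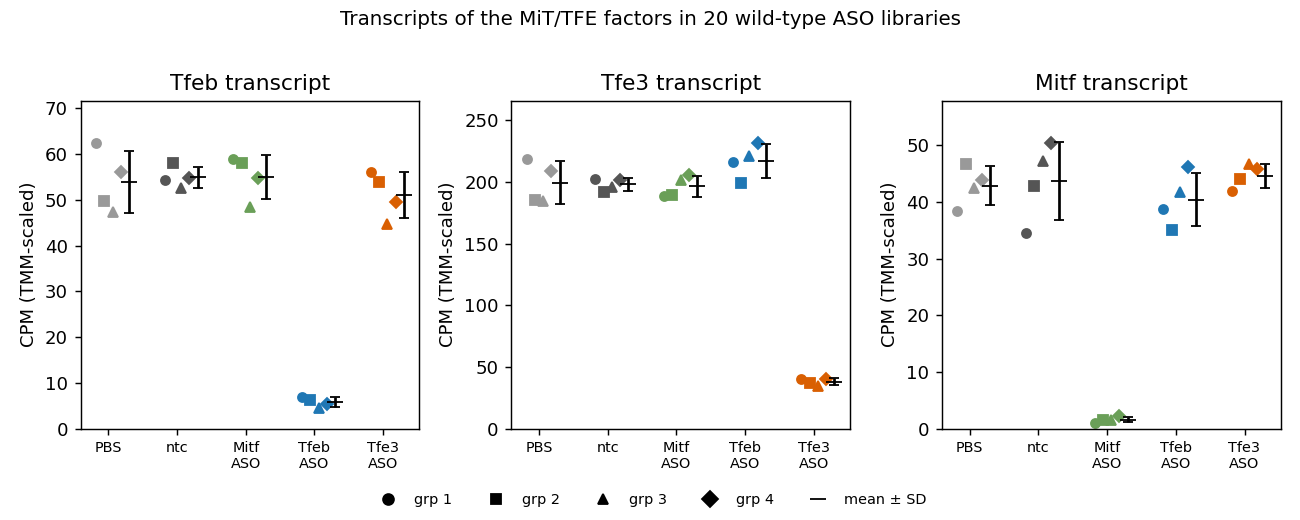
CPM, scaled with TMM factors (y axes, linear, from 0) of the Tfeb, Tfe3 and Mitf transcripts in the 20 wild-type ASO libraries, by treatment (x axes); points are libraries, with the marker giving the grp, and bars are mean ± SD of 4 libraries. Tfeb is between 4.59 and 6.91 CPM with its own ASO and Tfe3 between 34.9 and 40.5 CPM with its own ASO, below every library of the other treatments.

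Depth was 14372015 to 24769606 counts per library with the Tfeb ASO and 17484360 to 23011121 with the Tfe3 ASO, over 10277 listed genes. The cells carried the microglial markers P2ry12, Tmem119, Cx3cr1, Csf1r, Sall1, Siglech and Fcrls at mean levels of 790 CPM (Siglech, Tfe3 ASO) and above in both groups. Of these, Fcrls alone was called (4884, 4504, 4316 and 4210 CPM with the Tfeb ASO against 5161, 5221, 5257 and 4953 CPM with the Tfe3 ASO). Markers of other cell types were mostly not among the listed genes: 3 of 26 genes of monocytes and neutrophils were listed, 5 of 18 of border macrophages, 2 of 20 of T, NK and B cells, 6 of 20 of astrocytes, 5 of 19 of oligodendrocytes, 2 of 20 of neurons and 4 of 20 of endothelial and mural cells. Of these, Mt1 of the astrocyte list was called, and S100a8, Cd163, Cd3e, Gfap, Mog, Snap25 and Cldn5 were not listed. The summed level of the listed astrocyte markers was 259 to 418 CPM with the Tfeb ASO and 257 to 406 CPM with the Tfe3 ASO. Ddx3y, which is on the Y chromosome, was at 50.9 to 82.3 CPM in all 8 libraries.

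Beyond the targets, differences were small. At an adjusted p under 0.05, 365 of 10274 genes tested (3.55%) were called: 263 (2.56%) were higher with the Tfeb ASO and 102 (0.993%) were higher with the Tfe3 ASO. The median change of the called genes was 1.32-fold in the first set and 1.23-fold in the second, and 56 and 17 of them reached 1.5-fold. All 365 had the same sign in each of the 4 pairs, which 2961 of the 10274 genes did. The 4 libraries of each ASO did not overlap for 81 of the 263 and 44 of the 102, against 455 of all genes tested (4.43%). The genes were called from these same pairs, so both counts describe the calls and are no further evidence for them. The number of genes called depended on the pair left out. Without replicate 2 the test called 16 genes (6 higher and 10 lower with the Tfeb ASO). Without replicate 4 it called 13 (3 higher and 10 lower), without replicate 1 it called 652 and without replicate 3 it called 163. All 365 genes kept their sign in each of these fits. This follows from their having 1 sign in all 4 pairs and is no further evidence for the calls. The part of the smaller number of libraries was not tested. Without grp as block, 4 genes were called. Levels in Tfeb and Tfe3 ASO libraries of the same grp moved together across genes in grp 1, 3 and 4. In grp 2 the correlation (r of 0.177) was within the range of libraries of different grp (-0.472 to 0.271). 9 of the 365 genes were called in each of the 4 fits that leave out a pair, and they are described first. In these bulk samples, fewer cells of a kind and less RNA per cell cannot be told apart.

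**Figure D2:**
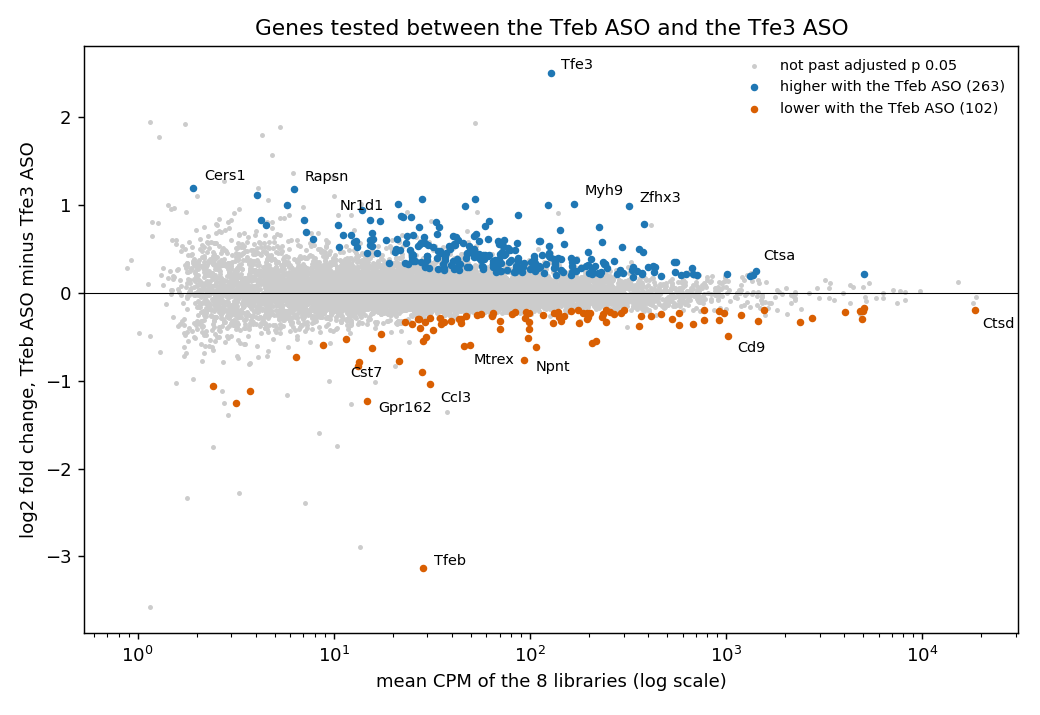
Log2 fold change, Tfeb ASO minus Tfe3 ASO (y axis), against the mean CPM of the 8 libraries (x axis, log scale) for the 10274 genes tested; blue points are the 263 genes higher and orange points the 102 genes lower with the Tfeb ASO at adjusted p under 0.05. Tfeb and Tfe3 lie far from all other called genes.

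Besides Tfeb and Tfe3, the 9 were Mtrex, Nr1d1, Ccl3, Ccl9, Ccpg1, Npnt and Clec7a. Ccl9 is not named by the rule that chose the other genes and was picked after its values were seen. Mtrex (chr13:112867418-112927398), the RNA helicase that feeds the nuclear exosome, stood at 34.5, 36.4, 38.4 and 37.5 CPM with the Tfeb ASO and at 52.9, 57.1, 56.9 and 56.6 CPM with the Tfe3 ASO. The 4 Tfeb ASO libraries lay below all other 16 wild-type ASO libraries, while the Tfe3 ASO libraries lay near the ntc mean of 53.3 CPM. The log2 fold change was -0.61 ± 0.05 (adjusted p = 0.00243). Nr1d1 (chr11:98767932-98775333), the REV-ERB-alpha repressor of the circadian clock, was at 27.8, 31.4, 32.4 and 23.1 CPM with the Tfeb ASO and at 15.3, 15.5, 16.5 and 14.8 CPM with the Tfe3 ASO. Here the groups did not overlap and the log2 fold change was 0.88 ± 0.08 (adjusted p = 0.00326). The ntc libraries were at 28.7, 15.6, 30.6 and 28.1 CPM, so 3 of them were near the Tfeb ASO level and that of grp 2 was at the Tfe3 ASO level. Mtrex and Nr1d1 were, with the targets, the 4 genes that all 14 alternative analyses called.

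The other 5 of these genes were lower with the Tfeb ASO. Ccl3 (chr11:83647844-83649355), a chemokine for monocytes and T cells, stood at 47.2, 13.2, 7.07 and 15.6 CPM with the Tfeb ASO and at 86.5, 30.2, 16.7 and 30.4 CPM with the Tfe3 ASO. Grp 1 was high under both ASOs, so the groups overlapped, and the difference lies within pairs (log2 fold change -1.04 ± 0.08, adjusted p = 0.00111; adjusted p = 0.737 without grp as block). Ccl9, another chemokine of the same family, was at 238, 153, 163 and 153 CPM against 339, 222, 243 and 229 CPM, again with grp 1 highest under both ASOs (-0.55 ± 0.04, adjusted p = 0.00111; 0.542 without the block). Clec7a (chr6:129461591-129472779), the beta-glucan receptor dectin-1 and a DAM gene, was at 38.4, 13.1, 11.0 and 17.4 CPM against 61.6, 28.5, 21.4 and 32.8 CPM (-0.90 ± 0.08, adjusted p = 0.00269; 0.657 without the block). Npnt (chr3:132881745-132950291), the matrix protein nephronectin, was at 58.1, 66.4, 72.6 and 79.9 CPM against 112, 102, 146 and 112 CPM, and these groups did not overlap (-0.77 ± 0.09, adjusted p = 0.00908; 0.184 without the block). The ntc mean of Npnt was 62.0 CPM, close to the Tfeb ASO level. Ccpg1 (chr9:72985429-73016340), a receptor for autophagy of the endoplasmic reticulum, was at 65.6, 81.1, 99.5 and 93.9 CPM against 107, 131, 142 and 136 CPM (-0.61 ± 0.05, adjusted p = 0.00238; 0.399 without the block). Its ntc mean of 122 CPM was close to the Tfe3 ASO level, so Npnt and Ccpg1, which differ in the same direction, lay near ntc in opposite groups.

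**Figure D3:**
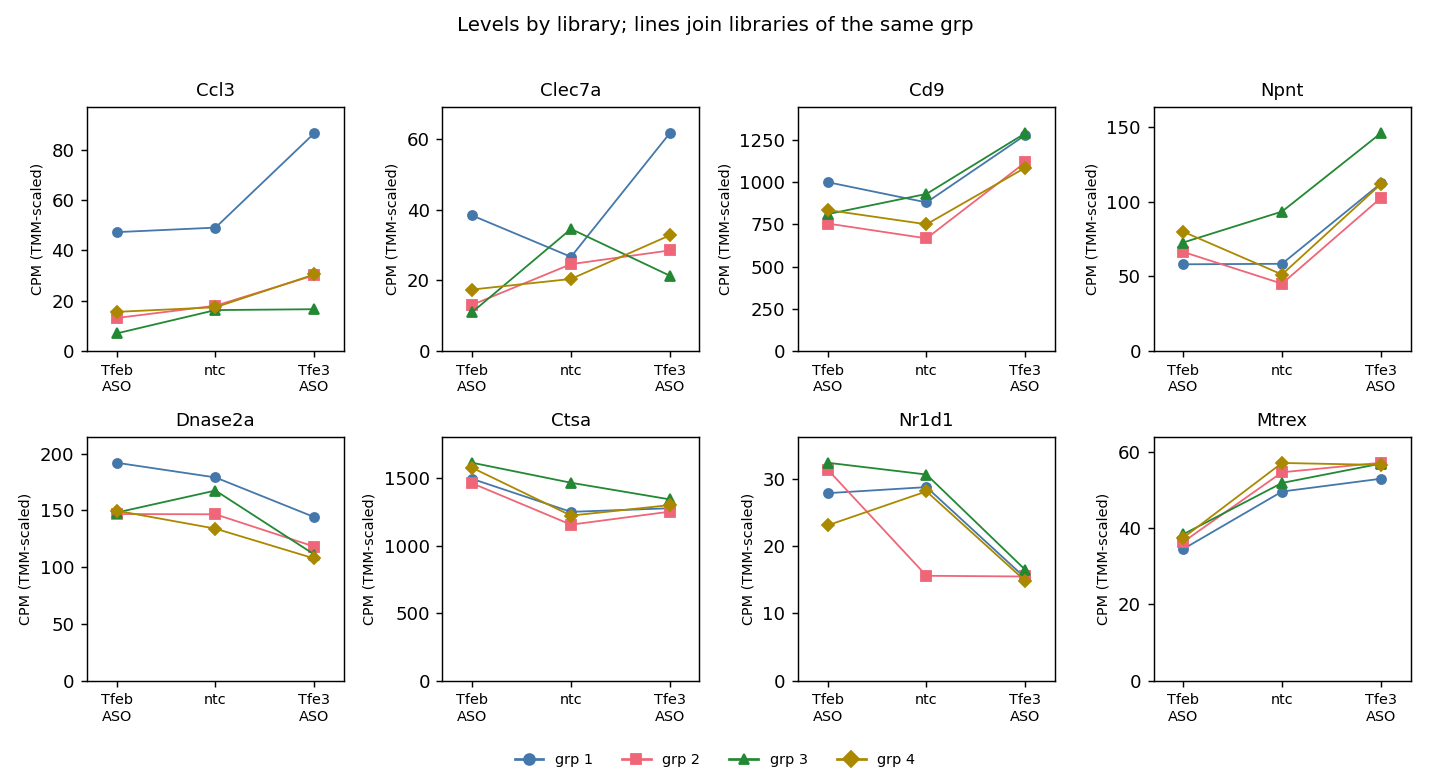
CPM, scaled with TMM factors (y axes, linear, from 0) of 8 genes in the Tfeb ASO, ntc and Tfe3 ASO libraries (x axes); lines join libraries of the same grp. Every line is higher at the Tfe3 ASO end than at the Tfeb ASO end for Ccl3, Clec7a, Cd9, Npnt and Mtrex and lower there for Dnase2a, Ctsa and Nr1d1, and grp 1 is the highest line of Ccl3 at both ends.

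Of 54 lysosomal hydrolases and their helpers tested, 11 were higher with the Tfeb ASO (2.56% over all genes tested) and 2 were lower (0.993%). The median log2 fold change of the list was 0.06, beside 0.01 over all genes tested. Dnase2a, the acid DNase that degrades engulfed DNA, was at 192, 147, 148 and 150 CPM with the Tfeb ASO and at 144, 118, 111 and 108 CPM with the Tfe3 ASO (log2 fold change 0.40 ± 0.05, adjusted p = 0.00916). Gaa was at 259, 248, 305 and 270 CPM against 204, 202, 226 and 224 CPM (0.33 ± 0.05, adjusted p = 0.0130). Ctsa was at 1492, 1460, 1612 and 1575 CPM against 1275, 1250, 1341 and 1299 CPM (0.25 ± 0.03, adjusted p = 0.0131). The groups of these 3 genes did not overlap.

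Other hydrolase genes called higher with the Tfeb ASO were Neu1 and Galc, a sialidase and the galactocerebrosidase lost in Krabbe disease, Scpep1, Man2b2, Plbd2, Tpp1, the tripeptidyl peptidase lost in a form of Batten disease, and Idua, which degrades heparan and dermatan sulfate. Over the 11, log2 fold changes were 0.20 to 0.40. In 8 of the 11 the groups did not overlap, beside 4.43% of all genes tested. Relative to ntc, whose libraries are shared by both differences, the median of the 11 was 0.14 with the Tfeb ASO and -0.11 with the Tfe3 ASO on the log2 scale. The 11 were chosen for the difference between the ASOs. A gap between these medians follows from that choice, and the lack of overlap is no further evidence for the calls. The 2 that were lower with the Tfeb ASO were Ctsd, the aspartic protease cathepsin D, and Ctso. Ctsd stood at 18518, 15682, 17919 and 17010 CPM with the Tfeb ASO and at 19842, 19375, 20843 and 19172 CPM with the Tfe3 ASO (-0.20 ± 0.04, adjusted p = 0.0265). All 4 Tfe3 ASO libraries of Ctsd lay above the ntc range of 14639 to 16052 CPM. The Tfeb ASO libraries other than that of grp 2 lay above it too, as did all 4 Mitf ASO libraries (20254 to 22460 CPM). Most of these calls were lost in the fits without the pair of grp 2 or grp 4. Without replicate 4 none of the 11 was called (adjusted p from 0.0875 to 0.222), and without replicate 2 Dnase2a alone was (adjusted p from 0.0446 to 0.206). Without replicate 3, 8 of the 11 were called. Ctsd and Ctso were not called without replicate 2, 3 or 4. Without grp as block none of the 11 was called either (adjusted p of 0.184 and above).

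Of 51 lysosomal membrane genes, 3 were higher with the Tfeb ASO (2.56% over all genes tested) and none was lower (0.993%), with a list median of 0.04. The list itself was not tested. Lamp1 stood at 1499, 1362, 1497 and 1498 CPM against 1322, 1232, 1277 and 1265 CPM (0.20 ± 0.04, adjusted p = 0.0269). Clcn7, the lysosomal chloride-proton exchanger, was at 145, 121, 114 and 117 CPM against 110, 108, 96.4 and 89.3 CPM (0.30 ± 0.06, adjusted p = 0.0290), and its Tfe3 ASO libraries lay below all other 16. Mcoln1 was at 36.3, 27.4, 32.4 and 33.3 CPM against 27.9, 22.96, 27.2 and 26.4 CPM, with overlapping groups (0.31 ± 0.06, adjusted p = 0.0362). Of 16 subunits of the V-ATPase, the proton pump that acidifies the lysosome, none was called by edgeR or DESeq2, and 7 had an unadjusted p under 0.05 (list median 0.08). With the length and GC offset, Atp6ap2 and Atp6v1g1 were called higher with the Tfeb ASO. Atp6v0d1, the subunit with the smallest p, was at 151, 136, 116 and 126 CPM against 125, 126, 110 and 101 CPM (adjusted p = 0.0863). Of 57 autophagy genes none was called by edgeR or DESeq2, and 15 had an unadjusted p under 0.05. Over all 10274 genes tested, 2169 had such a p, which is the share to set beside the V-ATPase and autophagy counts.

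The pathway that controls the factors was represented by 55 genes of mTORC1, Rag GTPases, folliculin, TSC and related signalling, of which 3 were higher with the Tfeb ASO. Over all genes tested 2.56% were higher, and a count as small as 3 does not set the list apart. Flcn, the folliculin of the complex through which Rag GTPases hold MiT/TFE factors in the cytoplasm, stood at 147, 155, 139 and 158 CPM with the Tfeb ASO. With the Tfe3 ASO it was at 111, 135, 116 and 118 CPM (0.32 ± 0.05, adjusted p = 0.0222). Tsc1, part of the complex that restrains mTORC1, was at 21.3, 26.3, 37.5 and 29.6 CPM against 15.9, 17.3, 26.5 and 21.9 CPM (0.49 ± 0.07, adjusted p = 0.0133). Mcoln1 is the third. The 3 lysosomal membrane genes and these regulators were called neither without replicate 2 (adjusted p of 0.0788 and above) nor without replicate 4 (adjusted p of 0.0970 and above).

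In the window from 250 bases before to 50 after RefSeq starts, the 12 of 14 lysosomal genes called higher that could be matched have 14 promoters. CACGTG is in 35.7% of these and TCACGTGA, which contains it, in 21.4%. Both sequences are palindromes, so each match is on both strands. Over all genes tested the shares were 10.3% and 1.96% of 10390 promoters, and over all lysosomal hydrolase and membrane genes tested 18.4% and 9.18% of 98. The 292 promoters of all genes higher with the Tfeb ASO held them in 45 (15.4%) and 12, and the 112 promoters of the genes lower with it in 11.6% and 1.79%. The AP-1 sequence TGACTCA was in 2.4% and 6.25% of these 2 sets and in 3.35% of all promoters. The TCACGTGA matches of the 14 are in Ctsa, Clcn7 and Mcoln1; that of Clcn7 and a second one of Ctsa lie in the 50 bases after the start and are not in the sequences printed above. A match describes the letters of the window and does not show binding.

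**Figure D4:**
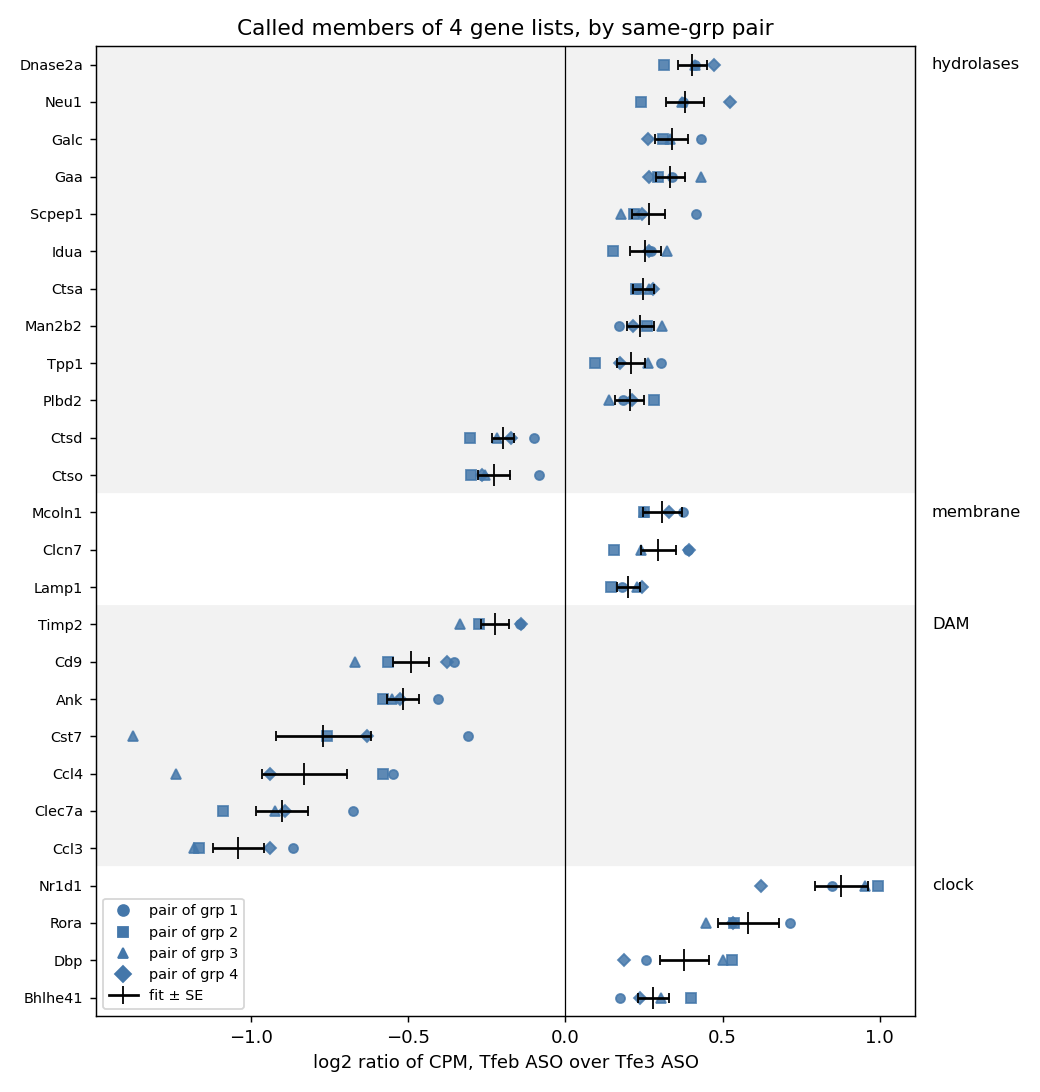
Log2 ratio of CPM, Tfeb ASO over Tfe3 ASO (x axis), in each same-grp pair (points) and in the fit with its SE (black bars), for called members of 4 gene lists (rows, grouped by list; Ctsd and Lamp1, which are also DAM genes, are shown with the lysosomal lists). All 4 pairs lie on the same side of 0 for every gene shown, and the genes were called from these same pairs.

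More genes of the DAM programme were lower than higher with the Tfeb ASO. Of 33 tested, 8 were lower with the Tfeb ASO (0.993% over all genes tested) and 1, Lamp1, was higher (2.56%), with a list median of -0.11. Beside Ccl3, Clec7a and Ctsd the 8 were Ank, Cd9, Ccl4, Cst7 and Timp2. Cd9 (chr6:125460266-125494791), a tetraspanin, stood at 999, 754, 810 and 834 CPM with the Tfeb ASO and at 1277, 1116, 1288 and 1084 CPM with the Tfe3 ASO (-0.49 ± 0.06, adjusted p = 0.00916). The groups did not overlap, and the Tfe3 ASO libraries lay above the ntc range of 667 to 929 CPM. The Mitf ASO libraries, at 1015 to 1160 CPM, lay above that range too. Ank, a transporter of pyrophosphate, was at 99.1, 68.9, 74.7 and 78.3 CPM against 131, 103, 110 and 113 CPM, with no overlap (-0.52 ± 0.05, adjusted p = 0.00326). Cst7, an inhibitor of cysteine cathepsins, was at 21.1, 11.6, 12.9 and 17.8 CPM against 26.2, 19.97, 34.4 and 27.9 CPM, with overlap (-0.77 ± 0.15, adjusted p = 0.0330). Its ntc libraries were at 7.25, 9.22, 24.1 and 9.03 CPM, so the libraries of both ASOs were above 3 of the 4 ntc libraries. Relative to the shared ntc libraries the median of the 8 was -0.08 with the Tfeb ASO and 0.35 with the Tfe3 ASO, a gap that follows from choosing the 8 by the difference between the ASOs. Without replicate 2 or without replicate 4, 3 of the 8 were called each time (highest adjusted p 0.173 and 0.161), and without grp as block none was (0.371 and above). 10 of the 43 DAM genes listed, Gpnmb and Lgals3 among them, were not in the table.

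Ccl3 and Ccl4 are also on a list of immediate early genes that tissue dissociation can induce, and on the list of inflammatory genes. Of 34 genes of the first list, 3 were lower with the Tfeb ASO (0.993% over all genes tested) and 1, Klf2, was higher (2.56%). The list median was 0.08, with 24 log2 fold changes positive and 10 negative, so the 3 do not stand for the list. The summed level of the list was 2940 to 3063 CPM with the Tfeb ASO and 2804 to 3036 CPM with the Tfe3 ASO. Nr4a1, the third of those that were lower, stood at 1.83, 1.75, 1.34 and 1.29 CPM against 2.95, 3.31, 3.60 and 3.24 CPM (-1.07 ± 0.23, adjusted p = 0.0423). The part of dissociation in the difference of Ccl3 and Ccl4 was not tested. The 39 inflammatory genes tested had a median of 0.02, with 23 log2 fold changes positive and 16 negative. Of these genes, 4 were lower with the Tfeb ASO (0.993% over all genes tested), and none was higher (2.56%). They were the 2 chemokines, Tlr7, the receptor for single-stranded RNA, and Tlr4, the receptor for lipopolysaccharide. Tlr7 stood at 594, 691, 828 and 652 CPM against 817, 853, 990 and 754 CPM (-0.31 ± 0.05, adjusted p = 0.0196). All 4 Tfeb ASO libraries lay below the ntc mean of 962 CPM, as did all 4 Mitf ASO libraries (745 to 910 CPM) and the Tfe3 ASO libraries of grp 1, 2 and 4. Tlr4 stood at 180, 225, 202 and 243 CPM against 224, 293, 246 and 261 CPM (-0.27 ± 0.05, adjusted p = 0.0343). Tlr7, Tlr4, Nr4a1 and Klf2 were not called without replicate 2, nor without replicate 4.

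Of 36 homeostatic microglia genes, Gpr34, Tgfbr1 and Fcrls were lower and Selplg was higher with the Tfeb ASO, with log2 fold changes of -0.28, -0.22, -0.20 and 0.22. Over all genes tested 0.993% were lower and 2.56% higher. The median of the homeostatic list was 0.02, with 22 log2 fold changes positive and 14 negative. Of 15 genes of the circadian clock, 4 were higher with the Tfeb ASO (2.56% over all genes tested), and none was lower (list median 0.20). After Nr1d1, the nuclear receptor Rora stood at 14.1, 15.9, 14.6 and 16.1 CPM against 8.42, 10.8, 10.5 and 11.0 CPM, with no overlap (0.58 ± 0.10, adjusted p = 0.0230). Bhlhe41, a repressor of the clock, had a log2 fold change of 0.28 (adjusted p = 0.0265). Dbp, an output factor of the clock, was at 43.6, 40.5, 30.7 and 20.4 CPM against 36.4, 27.9, 21.5 and 17.9 CPM (0.38 ± 0.08, adjusted p = 0.0391). The labels do not give the hour of collection. Without replicate 2 or replicate 4, Nr1d1 was the one clock gene still called, and no homeostatic gene was.

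Calls in other lists were few. Over all 10274 genes tested 3.55% were called, and 2169 had an unadjusted p under 0.05. Dhcr7 and Scd2 were the 2 of 28 genes of cholesterol synthesis and SREBP targets that were called, both lower with the Tfeb ASO (log2 fold change -0.25 and -0.24). Hk1 and Hk2 were called among 22 genes of glycolysis and hypoxia, both higher (0.31 and 0.19). Prdx1 was called among 26 antioxidant targets of Nrf2 (-0.26). None of these 5 was called without replicate 2, 3 or 4. In edgeR's test no gene was called among 34 of the interferon response (2 at an unadjusted p under 0.05), 22 of antigen presentation (4), 14 of lipid efflux and droplets (3), 60 of the respiratory chain (2), 26 of Atf4 and amino acid stress (9) or 21 of the cell cycle (3). DESeq2 called 1 interferon gene higher and 1 gene of the Atf4 list lower with the Tfeb ASO, and none in the other 4 lists. Of 77 cytosolic ribosomal protein genes none was called by edgeR or DESeq2 and 2 had an unadjusted p under 0.05, although 72 had a negative log2 fold change, with a median of -0.07. 2 genes encoded by mitochondrial DNA, mt-Atp6 and mt-Co2, were lower with the Tfeb ASO (-0.33 and -0.31). Counts of mitochondrial genes made up 1.85%, 1.58%, 1.66% and 1.98% of the libraries with the Tfeb ASO and 2.04%, 1.69%, 2.0% and 2.72% with the Tfe3 ASO, lower with the Tfeb ASO in all 4 pairs.

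The genes with the largest increases with the Tfeb ASO were mostly long. After Tfe3 the 14 that followed included Cers1, Rapsn, Psme2b, Spen, Macf1, Myh9, Dst, Hist2h2aa1, Numa1, Zfhx3, Kmt2d, Pcnt and Nr1d1, with log2 fold changes of 0.88 to 1.20. 9 of these 14 have a transcript in the longest quintile of all genes. Macf1, a giant linker of microtubules and actin, stood at 29.5, 46.7, 137 and 83.8 CPM with the Tfeb ASO and at 28.3, 25.8, 36.3 and 32.9 CPM with the Tfe3 ASO (1.07 ± 0.24, adjusted p = 0.0480). The difference was small in grp 1 and large in grp 3 and grp 4, and the groups overlapped. Zfhx3, a large zinc finger homeobox factor, was at 225, 326, 650 and 536 CPM against 170, 197, 207 and 237 CPM (0.99 ± 0.16, adjusted p = 0.0226), also with the largest level in grp 3. Of the short genes, Rapsn, which clusters acetylcholine receptors, was at 11.3, 8.33, 7.77 and 7.51 CPM against 3.88, 4.35, 4.12 and 2.95 CPM, with no overlap (1.19 ± 0.16, adjusted p = 0.0130). Cers1, a ceramide synthase, was at 4.19, 2.76, 2.19 and 1.53 CPM against 2.20, 0.852, 0.926 and 0.752 CPM. Psme2b and Hist2h2aa1 have near-identical copies in the genome, so their counts are uncertain. Of the 14, Nr1d1 alone was called without replicate 2 (highest adjusted p 0.151) or without replicate 4 (0.218), and 7 of the 14 were called without replicate 3.

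Transcript length and GC content moved with the calls over the whole table. In the longest quintile of genes 7.4% were called higher with the Tfeb ASO, against 0.584% in the shortest, while the shares called lower were 0.682% and 0.925%. In the quintile with the highest GC content 5.7% were called higher, against 0.389% in the lowest. The median transcript was 5956 bases long in the higher set, 2848 in the lower set and 3162 over all genes tested. By pair, the median log2 ratio of the longest quintile was -0.002, 0.04, 0.21 and 0.08 in grp 1 to 4, and that of the shortest 0.04, 0.02, -0.13 and -0.01, so grp 3 differed most. When each library's dependence on length and GC content was entered as an offset, 150 genes were called, 70 higher and 80 lower (46.7% higher, against 72.1% without the offset). 119 of the 365 were among them. Of the 70 called higher, 26 were in the longest quintile. Of the 14 largest increases after Tfe3, 8 were still called with the offset. All 8 DAM genes that were lower with the Tfeb ASO were still called, as were Mtrex, Nr1d1, Ccl9, Npnt and Ccpg1. Of the 11 hydrolases 5 were still called, among them Dnase2a, Galc, Scpep1 and Tpp1, and of the membrane genes Lamp1. No called member of the signalling or homeostatic list was.

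**Figure D5:**
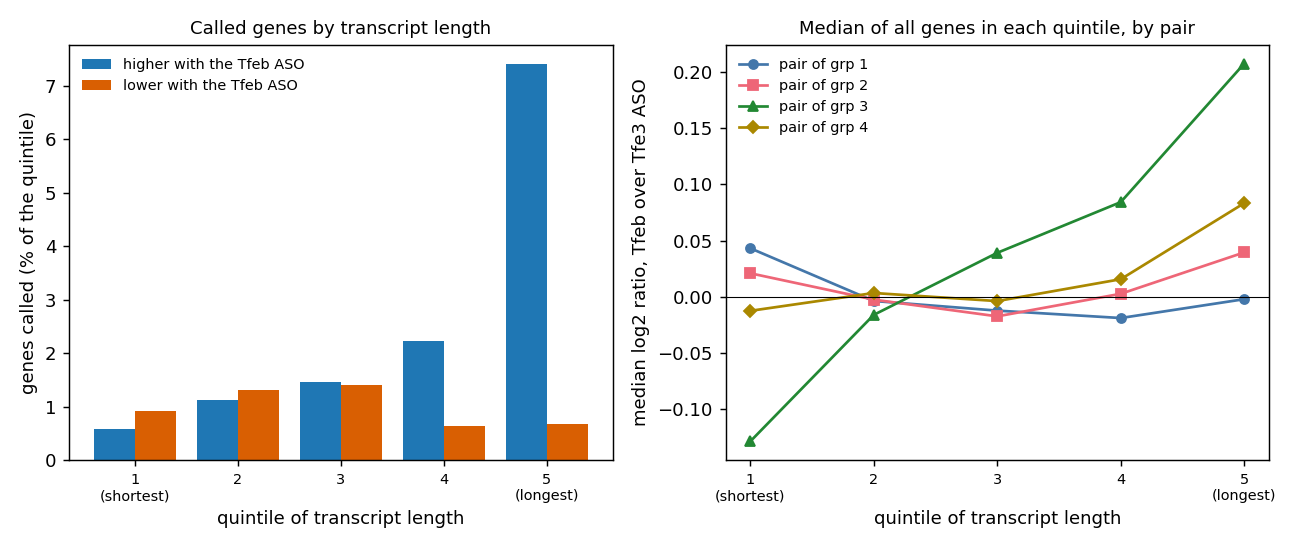
Left, the percentage of genes called higher (blue) or lower (orange) with the Tfeb ASO (y axis, from 0) in each quintile of transcript length (x axis, shortest to longest); right, the median log2 ratio, Tfeb ASO over Tfe3 ASO, of all genes in each quintile (y axis) in each of the 4 pairs. The share called higher goes from 0.584% in the shortest to 7.4% in the longest quintile, and the slope with length is steepest in the pair of grp 3.

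The largest decreases with the Tfeb ASO, besides genes already described, were those of Olfr110, Gpr162, Ptchd1, Chst2, Susd1 and Nbl1. Gpr162, an orphan receptor, stood at 14.3, 7.43, 6.15 and 7.16 CPM with the Tfeb ASO and at 31.9, 21.3, 19.5 and 10.8 CPM with the Tfe3 ASO (-1.23 ± 0.16, adjusted p = 0.0130). The ntc mean was 6.52 CPM, close to the Tfeb ASO level, and the groups overlapped through the Tfe3 ASO library of grp 4. Chst2, a sulfotransferase, was at 15.3, 8.33, 7.42 and 8.51 CPM against 23.2, 17.8, 13.9 and 12.8 CPM, beside 7.13 CPM with ntc (-0.79 ± 0.11, adjusted p = 0.0153). With the Mitf ASO, Gpr162 was at 14.2 to 20.8 CPM and Chst2 at 16.6 to 36.5 CPM, so a level above ntc was not particular to the Tfe3 ASO. Susd1 was at 11.2 to 13.3 CPM against 17.7 to 20.1 CPM, with the Tfe3 ASO libraries above all other 16 (-0.63 ± 0.10, adjusted p = 0.0204). Of the 15 largest decreases, 6 were called without replicate 2 (highest adjusted p 0.143) and 7 without replicate 4 (0.198), and 14 with the length and GC offset.

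Few genes set the libraries of 1 ASO apart from all other wild-type ASO libraries. The 4 Tfeb ASO libraries lay outside the range of the other 16 for 10 genes (0.0973%), of which 7 were called here: Tfeb, Mtrex, Sft2d2, Tex261, Ttc7, Nr4a1 and Gprasp2. The 4 Tfe3 ASO libraries did so for 19 genes (0.185%), of which 10 were called, among them Tfe3, Cd84, Wdr81, Susd1, Neu1, Gorasp1, Rgs7bp, Clcn7 and Steap3. Several of these were picked after their values were seen. Sft2d2 stood at 501, 521, 458 and 520 CPM with the Tfeb ASO against 643, 660, 571 and 701 CPM with the Tfe3 ASO (-0.36 ± 0.04, adjusted p = 0.00822). Neu1, the lysosomal sialidase, stood at 66.3, 63.8, 60.7 and 64.5 CPM against 51.0, 53.9, 46.9 and 44.7 CPM (0.38 ± 0.06, adjusted p = 0.0206). Over the 263 genes higher with the Tfeb ASO the median log2 difference from ntc was 0.22 with the Tfeb ASO and -0.21 with the Tfe3 ASO, and over the 102 lower genes -0.14 and 0.17. The ntc libraries enter both differences.

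The called genes were then read in libraries that had no part in the test. In SgshKO mice, which lack the lysosomal sulfamidase of heparan sulfate breakdown, 8 libraries with the Mitf and Tfe3 ASOs combined were compared with 8 with ntc. That comparison called 4.84% of 10589 genes higher and 4.5% lower, and Tfe3 was lower by a log2 fold change of -1.08 and Mitf by -2.26. Of the 260 measured genes that were higher with the Tfeb ASO in wild type, 43 (16.5%) were higher and 22 (8.46%) lower with the combination. Among those that were higher were the long genes Myh9 (0.88), Dst (0.80), Macf1 (0.66), Kmt2d (0.64), Numa1 (0.63) and Zfhx3 (0.57). Of the 11 hydrolases none was higher and 4 were lower: Galc (-0.25), Scpep1 (-0.18), Idua (-0.14) and Tpp1 (-0.13). Clcn7 (-0.31), Mcoln1 (-0.20) and Flcn (-0.31) were lower too. Of the 102 genes that were lower with the Tfeb ASO, 9 (8.82%) were higher and 20 (19.6%) lower with the combination. Of the 8 DAM genes 5 were lower: Clec7a (-0.55), Ccl4 (-0.48), Cst7 (-0.38), Cd9 (-0.22) and Ank (-0.22). The median of the whole DAM list with the combination was 0.05, beside -0.0035 over all genes tested, so the 5 do not stand for the list. In wild type these 5 genes were higher with the Tfe3 ASO than with the Tfeb ASO, so the 2 experiments gave opposite signs for the arm with less Tfe3, but they differ in genotype, in the Mitf ASO and in the reference group, and no test was made across them. Npnt (0.29), Ccl9 (0.29) and Ccpg1 (0.18) were higher with the combination, the same sign as with the Tfe3 ASO against the Tfeb ASO in wild type.

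In the age series, SgshKO and wild-type microglia at 8 months (7 and 4 libraries) differed in a large share of genes, 22.1% higher and 19.5% lower of 12927 tested. Of the 98 measured genes lower with the Tfeb ASO, 55.1% were higher in SgshKO and 16.3% were lower. Of the 260 measured genes that were higher with the Tfeb ASO, 25.4% were higher and 35% lower. All 8 DAM genes and all 11 hydrolases were higher in SgshKO at 8 months, with medians of 1.95 and 0.79 on the log2 scale, although the 2 groups differed in opposite directions between the ASOs. How many of the other DAM and hydrolase genes were higher there was not counted, so this cannot be called particular to the called members. Among the 8, Clec7a and Cst7 had the largest log2 differences, 5.60 each.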

How the data were processed

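PolyA RNA of sorted microglia was sequenced single-end from dUTP libraries, per the labels' protocols. The authors deposited raw counts per gene for the 20 wild-type ASO, 16 SgshKO ASO and 22 age-series libraries; the submitters' processing notes name STAR 2.5.3a, HOMER 4.11 and mm10 among tools and builds, with no roles. They also deposited a batch-corrected signal per gene, whose method is not given in the sources used here. It served 1 alternative.

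Counts of the 8 libraries were tested with edgeR 4.0.16 in R 4.3.3 (glmQLFit, glmQLFTest; ASO plus grp; TMM factors over the 20 libraries; filterByExpr, minimum count 10; two-sided, Benjamini-Hochberg adjustment over 10274 genes, threshold 0.05). SE is the absolute log2 fold change over the square root of F and restates the test. CPM are TMM-scaled. Pair ratios add 0.5 CPM. After removal of group means, Tfeb and Tfe3 ASO libraries of the same grp correlated across genes with r of 0.6, 0.177, 0.381 and 0.547. Those of different grp correlated with -0.472 to 0.271. The r of grp 2 lies within that range, so the pairing shows in grp 1, 3 and 4 and not in grp 2. Replicates differed by more than sampling noise. Alternatives used limma 3.58.1 and DESeq2 1.42.0. 1 PBS library has grp 4 in its title and grp 3 in its column name. It enters the scaling, and the fit of all 20 libraries with grp 4.

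The SgshKO ASO fit held grp as block and the 8-month fit genotype alone. The members and gene lists were chosen with earlier results of these data known. Genes were named by rule: the 15 largest called changes in each direction with 1 sign in all pairs, the MiT/TFE factors, and up to 4 called members of each list by p, or else its smallest p. Gene models are GENCODE vM21 (GRCm38): 10272 of 10277 genes had a length and GC content. RefSeq promoters (GRCm38.p6) matched 8125 of 10264 symbols tested. The analysis was tested on simulated data. Results for some genes are not reported here.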

Additional observations from a re-analysis of the deposited data

Results flagged for a closer look

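In groups of 4 libraries, 9 of 148 groups of named genes had 1 library far from the other 3, by Dixon's test at 95%, which flags about 1 in 20 groups by chance. With the Tfeb ASO, the library of grp 1 stood apart for Dnase2a (192 CPM, the others up to 150), Gpr162 (14.3, up to 7.43), Chst2 (15.3, up to 8.51) and Mt1 (48.5, up to 28.4). That of grp 2 stood apart for Lamp1 (1360 CPM, the others near 1500). With the Tfe3 ASO, the library of grp 1 stood apart for Mtrex (52.9 CPM, the others from 56.6), Cers1 (2.2, up to 0.926) and Hk1 (31.2, from 36.1). That of grp 3 stood apart for Scd2 (223 CPM, the others from 262). For Mtrex the range is 52.9 to 57.1 CPM, so the distance is small.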

How the results depend on the processing

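The Tfeb and Tfe3 transcripts kept their direction and call in all 14 alternatives. The number of genes called, 365, was 358 with TMM factors over the 8 libraries, 381 with RLE factors, 485 with DESeq2, 477 with a robust spread estimate, 364 without the filter and 362 with a mean of at least 1 CPM. It was 167 with all 20 libraries in the fit, 210 with limma on the batch-corrected signal and 150 with the replicate block and a length and GC offset, an alternative chosen after seeing the data. The pairs had a large part in it: without the replicate block 4 genes were called (819 at an unadjusted p under 0.05), and leaving out replicates gave 13 to 652. Fewer libraries enter those fits, and the part of this in the counts was not tested. All 365 calls kept their sign in each of the 4 fits, which follows from their having 1 sign in all 4 pairs. Without replicate 2 and replicate 4, 1504 and 1481 genes had an unadjusted p under 0.05, against 2169 in the main fit. The share called higher with the Tfeb ASO, 72.1%, was 62.3% with TMM factors over the 8 libraries and 46.7% with the offset. Without replicate 1, 2, 3 and 4 it was 81.7%, 37.5%, 66.9% and 23.1%, so the balance turned with the offset, without replicate 2 and without replicate 4. Of the 365 calls, 354 kept their sign in all alternatives, 8 were called in all but the fit without the block, and 4 in all. 1 named gene reversed: Dhcr7 had a log2 fold change of 0.21 on the batch-corrected signal (adjusted p = 0.523), and the cause was not tested. Counts in the SgshKO ASO (988) and 8-month (5372) comparisons stayed within 1.5 times in all their alternatives, 1011 and 3858 with the replicate block. Depth limits genes under about 10 CPM, such as Cers1 and Nr4a1.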
